A study of Mus musculus with 6 samples.

Results

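The 8 genes described here encode the retromer and its sorting nexins, and all 8 have a row in the deposited read count table of 40840 genes. They were chosen by symbol, as subunits of the retromer trimer (Vps35, Vps26a, Vps26b and Vps29) and as sorting nexins with a BAR domain, a curved dimer fold that senses and shapes membrane (Snx1, Snx2, Snx5 and Snx6). The samples were islets of the mouse pancreas, clusters of endocrine cells in which beta cells make insulin, from 3 knockout (KO) and 3 wild-type (WT) RNA-seq libraries, both on a C57BL/6J background. The title of the series names IGF2R in beta cells as the subject. The labels do not name the gene removed, the exons or cells affected, the driver of any Cre, or the sex and age of the mice. Nor do they state whether each library is a separate animal, so p-values measure library-to-library spread that may be technical.

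Retromer is a coat that picks up transmembrane receptors from endosomes before they reach the lysosome. VPS35 is the elongated scaffold, VPS29 binds one end of it, and VPS26A or VPS26B binds the other. The SNX-BAR proteins work as pairs of SNX1 or SNX2 with SNX5 or SNX6 and draw the endosome membrane into tubules. A main passenger of this route is the cation-independent mannose 6-phosphate receptor, the product of Igf2r, which carries new lysosomal enzymes out of the Golgi and has to be brought back from endosomes for another round.

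Endocrine transcripts were abundant in every library. The hormone and granule markers Ins1, Ins2, Gcg, Sst, Ppy, Iapp and Chga summed to 202290 to 222723 CPM (counts scaled by library size) in KO and 181644 to 209027 CPM in WT. Total counts ranged from 16689319 to 18956235 in KO and from 16943764 to 18757633 in WT. Acinar transcripts, from the digestive-enzyme cells around islets, differed between libraries. The 15 acinar markers held 0.0853%, 0.227% and 0.0789% of counts in KO libraries 1 to 3, against 1.48%, 1.52% and 0.249% in WT libraries 1 to 3, and none was at 0 counts in any library. In bulk tissue, fewer cells of a type and less RNA per cell cannot be told apart. Igf2r itself stood at 48.6 ± 0.59 CPM in KO and 113 ± 16.6 CPM in WT (SD, n = 3). Its log2 fold change was -1.21 (SE 0.0946, adjusted p 0.00261 by edgeR's quasi-likelihood test). Leaving out KO library 1 or KO library 2 ended that call (edgeR adjusted p 0.13 and 0.192), with log2 fold changes of -1.22 and -1.20.

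Each SNX-BAR pair and the VPS26 pair are close relatives, so the first point is whether their reads can be told apart. The stretches below are shown because they hold the longest run of identical bases between the 2 mRNAs of a pair. Vps26a and Vps26b share at most 17 bases in a row. The coding stretch of 61 bases around that run lies at chr10:62456835-62458960 on the minus strand for Vps26a, across exons 8 and 9, and at chr9:27010014-27010400 on the minus strand for Vps26b, across exons 5 and 6 (GRCm38, GENCODE M21). Capitals mark the 18 bases at which the 2 genes differ, and sequences are written 5′ to 3′ as in the mRNA.
Vps26a: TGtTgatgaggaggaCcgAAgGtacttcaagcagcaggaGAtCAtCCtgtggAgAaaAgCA
Vps26b: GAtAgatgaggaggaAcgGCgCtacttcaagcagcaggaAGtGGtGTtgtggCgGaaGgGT

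Snx5 and Snx6 share at most 15 bases in a row. Around that run, 59 coding bases span exons 12 and 13 in both genes, at chr2:144252513-144253702 on the minus strand for Snx5 and at chr12:54751850-54751981 on the minus strand for Snx6. They differ at the 12 bases in capitals.
Snx5: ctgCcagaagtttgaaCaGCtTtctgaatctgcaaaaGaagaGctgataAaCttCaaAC
Snx6: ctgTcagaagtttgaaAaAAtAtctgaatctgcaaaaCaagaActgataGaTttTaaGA

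For Snx1 and Snx2 the longest shared run was 20 bases. Vps26a, Vps26b and Snx1 had 0 stretches of 50 bases in common with the annotated transcripts of any other gene. Snx2 had the most, with 9.88% of its 50-base stretches also found elsewhere. They lie in Gm12543, a transcribed processed pseudogene inside the Snx30 gene on chromosome 4. Gm12543 has no row in the count table. Annotated Snx30 transcripts also hold 5.14% of the Snx2 stretches, so the counts of Snx2 and Snx30 carry some uncertainty. For Vps29 the share was 5.78%, for Snx5 3.98%, for Vps35 2.17% and for Snx6 1.03%. Snx6 overlaps no annotated gene, and its shared stretches recur in transcripts of many other genes. Some stretches of Vps29 and Snx5 do so too. For Vps29, Snx5 and Vps35, part of the share comes from genes on the opposite strand whose exons overlap the member. Fam216a shares 340 bases with Vps29, Mgme1 shares 206 bases with Snx5 and Orc6 shares 171 bases with Vps35. Without a stated strand setting for the counting, those bases may hold reads of either gene. None of the 3 partners was called, with log2 fold changes of 0.12 for Orc6, 0.12 for Fam216a and 0.23 for Mgme1.

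The comparison of KO with WT asks whether the machinery that returns the receptor differed where the receptor transcript was lower. No member passed the test. edgeR, DESeq2 and limma-voom each called 0 of the 8 at an adjusted p under 0.05, and each gave 0 of the 8 an unadjusted p under 0.05. Over all 16240 genes tested, edgeR called 2 (0.0123%), DESeq2 called 1.02% of the 6076 genes to which it gave an adjusted p, and limma-voom called 0.0185%. At an unadjusted p under 0.05 edgeR had 11% of all genes. The 8 log2 fold changes lay between -0.05 and 0.08, with a median of 0.01 against 0.00 over all genes. Of the 8, 6 had higher and 2 had lower values in KO, where 50% of all genes had higher values. All 8 were within 0.1 of 0 on the log2 scale, as were 53.3% of all genes and 70.6% of the 3773 genes with mean CPM in the members' own range (42.1 to 141).

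In the plot of the levels by library, the upper row of panels holds the trimer genes and the lower row the sorting nexins.

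**Figure D1:**
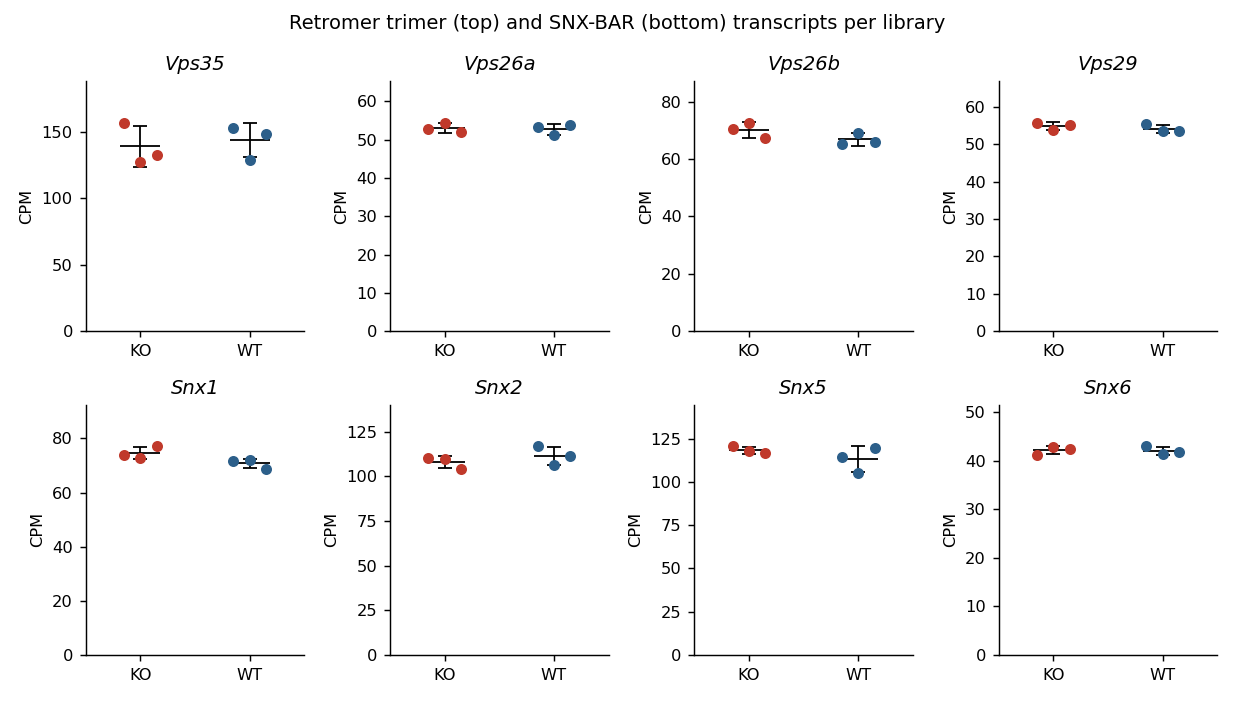
CPM of each gene (vertical axis, from 0) in the 3 KO libraries (red) and the 3 WT libraries (blue), with the mean and SD in black. KO and WT overlap in every panel other than Snx1, whose KO libraries lie between 72.9 and 77.1 CPM and WT libraries between 68.8 and 72.0 CPM.

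Vps35, the scaffold of the trimer (chromosome 8, 85260392 to 85299802), had 157, 127 and 133 CPM in KO libraries 1 to 3 and 153, 129 and 148 CPM in WT libraries 1 to 3. KO library 1 and WT libraries 1 and 3 were high, and every WT value lay within the KO range. Its means were 139 ± 15.7 CPM in KO and 143 ± 12.8 CPM in WT (SD, n = 3). The log2 fold change was -0.05 (SE 0.0827, edgeR adjusted p 0.87), with a 95% interval from -14.6% to 9.56%.

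Vps26a, which takes the arrestin-fold position at one end of the scaffold (chromosome 10, 62455235 to 62486805), had 52.7, 54.4 and 51.9 CPM in KO libraries and 53.2, 51.1 and 53.8 CPM in WT libraries. The 2 groups interleaved, and the log2 fold change was 0.01 (SE 0.0593, edgeR adjusted p 0.971, 95% interval -7.69% to 9.53%). Vps26b, which fills the same position (chromosome 9, 27007771 to 27030065), had 70.4, 72.6 and 67.3 CPM in KO libraries and 65.2, 69.2 and 66.1 CPM in WT libraries. Here KO libraries 1 and 2 were above all WT libraries and KO library 3 was between them. The log2 fold change of Vps26b was 0.07 (SE 0.0568, edgeR adjusted p 0.673, 95% interval -3.29% to 13.9%).

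Vps29, the smallest subunit, which binds the far end of VPS35 (chromosome 5, 122354369 to 122364984), had 55.8, 53.8 and 55.2 CPM in KO libraries and 55.5, 53.6 and 53.5 CPM in WT libraries. The spread over all 6 was a coefficient of variation of 1.93%. Its log2 fold change was 0.02 (SE 0.0583, edgeR adjusted p 0.932, 95% interval -6.79% to 10.3%).

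Snx1, which pairs with SNX5 or SNX6 (chromosome 9, 66088133 to 66126587), had 73.9, 72.9 and 77.1 CPM in KO libraries and 71.6, 72.0 and 68.8 CPM in WT libraries. It was the 1 member of 8 whose groups did not overlap, with every KO library above every WT library. Across all genes tested, the groups did not overlap for 15.7%, with KO entirely above WT for 8.02% and entirely below for 7.69%. The difference did not pass the test, with a log2 fold change of 0.08 (SE 0.0547, edgeR unadjusted p 0.178, adjusted p 0.629) and a 95% interval from -2.56% to 14.1%. Against WT library 3 alone, without the acinar-rich WT libraries 1 and 2, it was 0.12, in a fit that assumes this lone library to vary like the KO libraries. That value is given without a test, because the WT arm is then a single library.

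Snx2, the partner that can take the place of SNX1 (chromosome 18, 53176316 to 53220865), had 110, 110 and 104 CPM in KO libraries and 117, 106 and 111 CPM in WT libraries. The groups overlapped, with a log2 fold change by edgeR of -0.04 (SE 0.0532, adjusted p 0.795, 95% interval -10.2% to 4.72%).

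Snx5, whose product with that of Snx6 recognises a sorting signal in the tail of the mannose 6-phosphate receptor (chromosome 2, 144250123 to 144270906), had 121, 118 and 117 CPM in KO libraries and 115, 105 and 120 CPM in WT libraries. WT library 2 was the low value, and WT library 3 lay among the KO libraries. The log2 fold change was 0.06 (SE 0.0559, edgeR adjusted p 0.695, 95% interval -3.50% to 13.4%). Against WT library 3 alone it was -0.02, given without a test because the WT arm is then a single library. Snx6 (chromosome 12, 54746349 to 54795703) had 41.3, 42.9 and 42.4 CPM in KO libraries and 43.0, 41.5 and 41.8 CPM in WT libraries. Its values interleaved and had the smallest spread of the 8, a coefficient of variation of 1.74%, with a log2 fold change by edgeR of 0.00 (SE 0.0619, adjusted p 0.989, 95% interval -8.33% to 9.59%).

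Set beside Igf2r, the 8 intervals cover a narrow span.

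**Figure D2:**
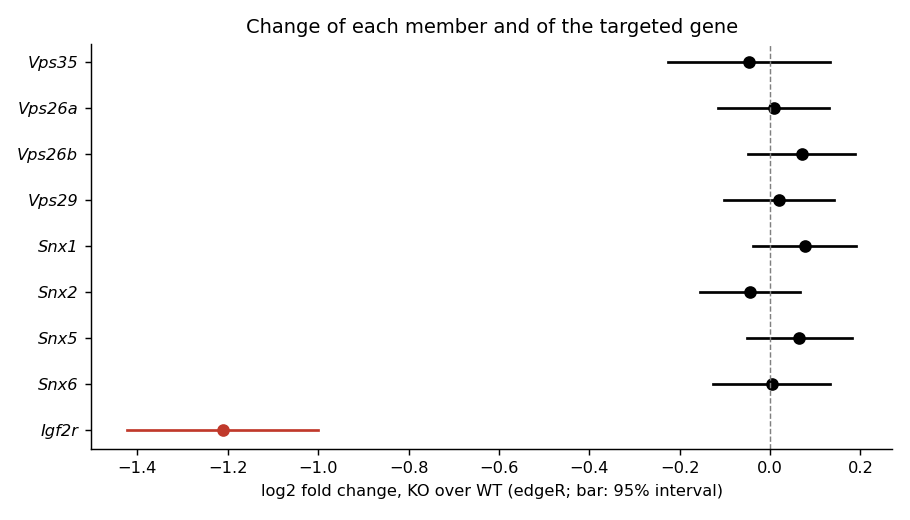
Log2 fold change of KO over WT (points) with 95% intervals (bars) from edgeR for the 8 members (black) and Igf2r (red). The 8 points lie between -0.05 and 0.08 and each of their intervals crosses 0, while Igf2r lies at -1.21.

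Levels of different genes were compared per kilobase of exon. Over the merged exons of all annotated transcripts, Snx2 was the highest at 40.01 ± 1.19 CPM per kb in KO and 41.2 ± 1.95 in WT (SD, n = 3), followed by Snx5 at 28.3 ± 0.458 in KO and 27.1 ± 1.80 in WT. Vps26a stood at 18.5 CPM per kb in KO and 18.4 in WT, Snx1 at 17.2 in KO and 16.3 in WT, and Vps35 at 15.6 in KO and 16.1 in WT. Below them were Snx6 at 14.1 in KO and 14.0 in WT, Vps26b at 13.8 in KO and 13.1 in WT, and Vps29 at 8.93 in KO and 8.81 in WT, also in CPM per kb. Over the 6 libraries the ranges of Snx1 and Vps35 overlapped, as did those of Vps35 and Snx6 and of Snx6 and Vps26b, so the order within those pairs was not beyond the spread.

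The order below Snx5 depended on the length used. Merged exons include retained introns, and the merged length of Vps35 is 8899 bases against 3474 bases for its principal transcript, and that of Vps29 6148 against 2716 bases. Per kilobase of principal transcript, a length chosen after the data were seen, Snx2 (52.3 in KO and 53.9 in WT) and Snx5 (47.1 in KO and 45.1 in WT) were again the highest. Vps35 then stood at 39.9 CPM per kb in KO and 41.3 in WT, and Snx1 at 36.0 in KO and 34.1 in WT. The range of Vps35 over the 6 libraries (36.6 to 45.1) overlapped those of Snx5 (41.8 to 48.0) and Snx1 (33.2 to 37.2). The order of Vps35 against either was thus not beyond the spread. Snx6 was at 21.9 in KO and 21.8 in WT. On this scale Vps29 and both VPS26 genes overlapped, with ranges over the 6 libraries of 19.7 to 20.6 for Vps29, 19.7 to 21.0 for Vps26a and 18.2 to 20.3 for Vps26b.

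The balance between interchangeable subunits among the members was tested as shares of CPM per kilobase of merged exons. Snx32, a close relative of Snx5 and Snx6 described below, is not a member and was not counted in these shares. Vps26b made up 42.8%, 42.8% and 42.1% of the VPS26 transcripts in KO libraries 1 to 3 and 40.7%, 43.2% and 40.8% in WT libraries 1 to 3. WT library 2 was the highest of all 6, so the groups overlapped, with a difference of 1.03 percentage points (exact two-sided permutation p 0.4). Snx1 made up 29.5%, 29.3% and 31.5% of Snx1 plus Snx2 in KO libraries and 27.6%, 29.7% and 27.8% in WT libraries, a difference of 1.71 points (exact two-sided permutation p 0.3). Snx5 made up 67.7%, 66.4% and 66.4% of Snx5 plus Snx6 in KO libraries and 65.7%, 64.5% and 67.3% in WT libraries, a difference of 0.988 points (exact two-sided permutation p 0.4).

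The 4 sorting nexins together held 63.7 ± 0.573% of the summed level of all 8 genes in KO and 63.6 ± 0.171% in WT (SD, n = 3), which gave p = 0.9 in the exact two-sided permutation test. Adjusted over the 4 shares, the p-values were 0.533 to 0.9, and 3 against 3 libraries cannot give an exact p below 0.1. The size of each difference depended on single libraries. Without WT library 2 it was 1.83 points for the Vps26b share, 2.37 points for the Snx1 share and 0.334 points for the Snx5 share. Without WT library 1 or WT library 3 the Vps26b share differed by 0.606 or 0.642 points, and without WT library 3 the Snx5 share by 1.72 points. Without KO library 3 the Snx1 share differed by 1.01 points, and without KO library 1 the Snx5 share by 0.546 points. With 2 libraries against 3 the exact two-sided permutation p cannot go below 0.1, and it was 0.1 for Vps26b and Snx1 without WT library 2 and for Snx5 without WT library 3. With principal transcript lengths the KO mean share of Vps26b was 49% and that of Snx1 40.8%, against 47.9% and 38.8% in WT. The share of the 4 sorting nexins was then 61.1% in KO and 60.7% in WT. From raw counts, without a length, it was 52.0% in KO and 51.6% in WT, so its level depended on the length used.

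**Figure D3:**
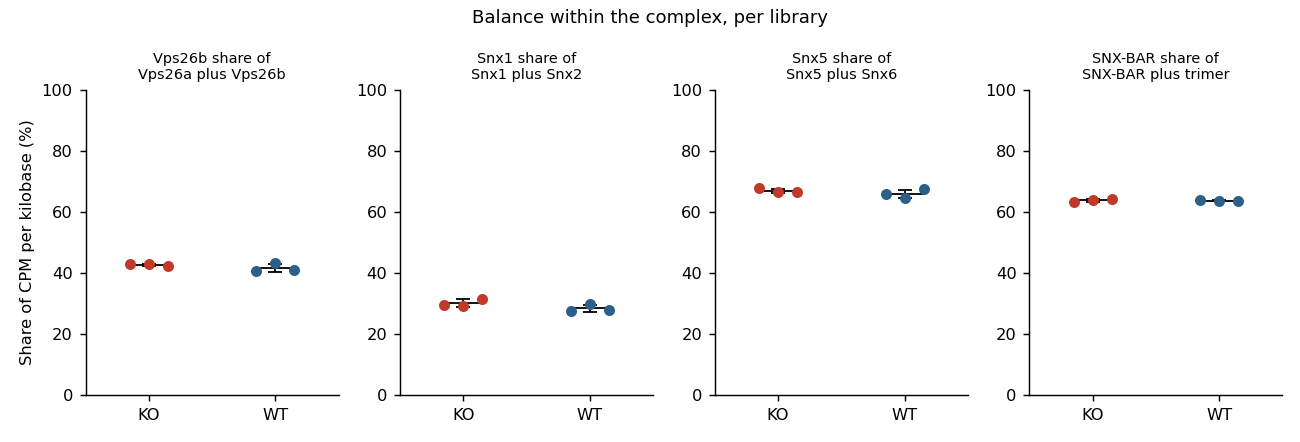
Share of CPM per kilobase of merged exons (vertical axis, 0 to 100%) in the 3 KO (red) and 3 WT (blue) libraries, with mean and SD in black. The KO and WT means differ by at most 1.71 percentage points, for Snx1 within Snx1 plus Snx2.

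Vps35 varied more between libraries than its partners did. Relative to its own mean over the 6 libraries, it stood at 111%, 90.1% and 94.0% in KO libraries 1 to 3 and 108%, 91.3% and 105% in WT libraries 1 to 3. Its coefficient of variation over all 6 was 9.25%, against 1.74% to 4.90% for the other 7 members. Of the 3773 genes in the members' range of levels, 91.0% had a smaller coefficient of variation than Vps35, 1.14% a smaller one than Snx6, 1.91% a smaller one than Vps29 and 3.60% a smaller one than Vps26a. Reads per library were 696 to 810 for Snx6, 899 to 1051 for Vps29 and 858 to 1003 for Vps26a. These small spreads were not compared with the sampling noise of such counts, so they do not show unusually stable genes. The high and low libraries of Vps35 were mixed across genotypes.

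The 3 libraries with high Vps35 were also the deepest, at 18956235 counts for KO library 1, 18757633 for WT library 1 and 18156540 for WT library 3. The 3 with low Vps35 had 17749598 counts in KO library 2, 16689319 in KO library 3 and 16943764 in WT library 2. Vps35 has merged exons of 8899 bases. Genes with 8000 bases or more held 21.1%, 20.4% and 20.6% of CPM in KO libraries 1 to 3. In WT libraries 1 to 3 they held 22.5%, 21.3% and 21.2%. The part of depth or of length in the Vps35 pattern was not tested.

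Of the 6073 other genes with a mean log2 CPM of at least 5, those with a profile nearest to that of Vps35 were Nckap1, which encodes a subunit of the WAVE actin regulator, Dcun1d4 of the cullin neddylation machinery, and Slc9a7, which encodes a sodium and proton exchanger of the trans-Golgi network. Likeness was the root mean square difference of log2 CPM after each gene was standardised over the 6 libraries, and it was 0.111 for Nckap1, 0.129 for Dcun1d4 and 0.154 for Slc9a7. Nckap1 had 348, 292 and 305 CPM in KO libraries and 348, 302 and 337 CPM in WT libraries. Among the members the nearest was Snx2, at 0.745 and rank 747, and the farthest was Vps26b, at 1.57 and rank 4896. Within the trimer, Vps29 ranked 1103 and Vps26a 2583.

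**Figure D4:**
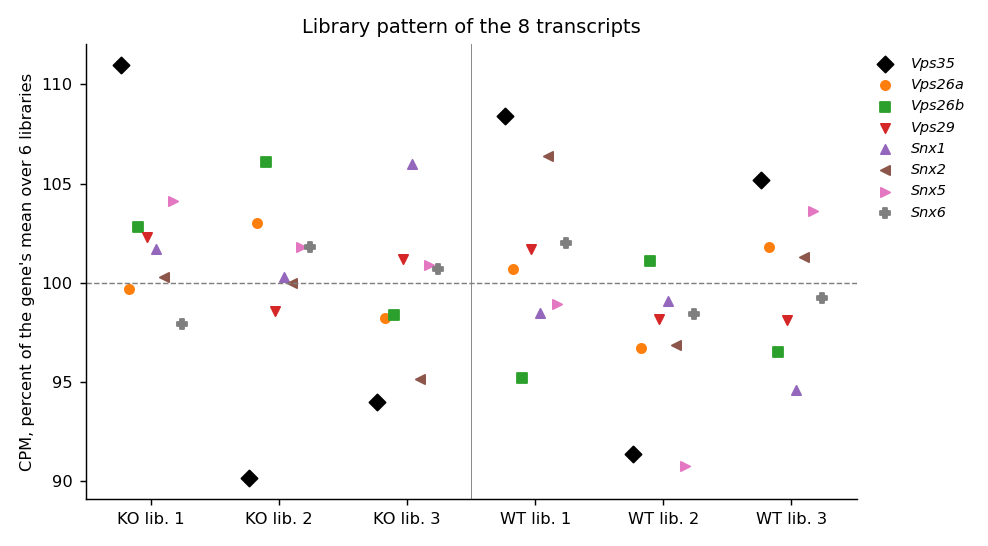
CPM of each member as a percentage of its own mean over the 6 libraries (vertical axis) in KO libraries 1 to 3 (left) and WT libraries 1 to 3 (right). Vps35 (black diamonds) lies between 90.1% and 111%, high in KO library 1 and WT libraries 1 and 3, while the other symbols stay between 90.7% and 106%.

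The wider endosome-to-Golgi route was described with 7 lists holding 91 genes, of which 89 were tested. Besides Igf2r, which stands in the list of cargo receptors, edgeR called 0 of them, the smallest adjusted p being 0.27, and DESeq2 and limma-voom also called 0. Values were higher in KO for 44 and lower for 45. At an unadjusted p under 0.05 there were 14 of the 89, Igf2r among them, beside 11% of all genes, and the groups did not overlap for 13, beside 15.7% of all genes.

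Among 8 other endosomal sorting nexins the median log2 fold change was -0.01, with 3 higher and 5 lower values. Snx3, the adaptor that brings the trimer to membranes without a BAR partner, had 111, 118 and 117 CPM in KO libraries and 105, 104 and 109 CPM in WT libraries, a log2 fold change by edgeR of 0.12 (SE 0.0516, adjusted p 0.422). Its KO libraries were all above its WT libraries. Snx32, a close relative of Snx5 and Snx6, stood at 62.2 CPM in KO and 53.9 CPM in WT, a log2 fold change by edgeR of 0.21 (SE 0.0665, adjusted p 0.295), with KO library 1 (57.2 CPM) just below WT library 3 (57.8 CPM). Snx30, which shares stretches with Snx2 as given above, was at -0.02.

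The WASH complex, which builds branched actin on retromer-coated endosomes, had 5 higher and 3 lower values among 8 genes including actin-capping subunits. Washc1, the catalytic activator of actin branching, had 50.8, 51.9 and 50.8 CPM in KO libraries and 43.1, 47.4 and 47.9 CPM in WT libraries, while Washc2, the long subunit that binds VPS35, had 104, 99.2 and 98.1 CPM in KO libraries and 110, 107 and 106 CPM in WT libraries. The groups of each did not overlap, in opposite directions, and neither passed the test (log2 fold change 0.15 and edgeR adjusted p 0.406 for Washc1, -0.10 and 0.469 for Washc2). The capping subunit gene Capzb was at 0.06.

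Of 12 genes for recruitment and regulation, 3 had higher and 9 had lower values in KO, with a median of -0.03. The small GTPase gene Rab7, which recruits the trimer to endosomes, stood at 216 CPM in KO and 209 CPM in WT (log2 fold change 0.05). Dnajc13, an endosomal chaperone partner, was at -0.10. Ankrd50 had 42.4, 37.3 and 41.97 CPM in KO libraries and 48.0, 47.2 and 46.6 CPM in WT libraries, a log2 fold change by edgeR of -0.22 (SE 0.0658, adjusted p 0.274). For Ankrd50 every KO library was below every WT library, without passing the test.

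The list of Golgi tethers and SNAREs, which capture carriers arriving from endosomes, was split at 9 higher and 9 lower values, with a median of -0.01. It held 5 genes of 18 with an unadjusted p under 0.05, where 11% of all genes tested had one, and all 5 had lower values in KO, where 5.8% of all genes had such a p with a lower value. No test compared the list with other genes. They were the golgins Golga4, Golga1 and Gcc2 and the partners Fam91a1 and Wdr11, of which Golga1 and Wdr11 are named after their values were seen. Golga4 had 468, 459 and 424 CPM in KO libraries and 544, 522 and 469 CPM in WT libraries, a log2 fold change by edgeR of -0.19 (SE 0.0635, adjusted p 0.324). Gcc2 had 80.0, 75.8 and 71.9 CPM in KO libraries and 91.0, 87.9 and 83.5 CPM in WT libraries, a log2 fold change by edgeR of -0.20 (SE 0.0576, adjusted p 0.27). For both genes WT library 3 was the WT library nearest to KO.

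None of the 5 tether genes passed the adjusted test. With all libraries the log2 fold changes of Golga1, Fam91a1 and Wdr11 were -0.17, -0.12 and -0.12. Values against WT library 3 alone are given without a test, because the WT arm is then a single library. They were -0.06 for Golga4, -0.14 for Gcc2, -0.03 for Golga1, -0.08 for Fam91a1 and -0.17 for Wdr11. The difference was thus larger for Wdr11 and smaller for the other genes. Acinar transcripts were higher in WT libraries 1 and 2, as given above. Genes with merged exons of 8000 bases or more, Golga4 and Gcc2 among them, held 21.1%, 20.4% and 20.6% of CPM in KO libraries and 22.5%, 21.3% and 21.2% in WT libraries. The part of either in the tether values was not tested.

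The commander and retriever list, a parallel coat with its own VPS35-like and VPS26-like subunits, had 10 higher and 6 lower values among 16 genes, with a median of 0.05. Vps35l, the scaffold of retriever, stood at 66.1 CPM in KO and 62.2 CPM in WT (log2 fold change 0.09), and its adaptor Snx17 at 71.0 CPM in KO and 68.1 CPM in WT (0.06). Ccdc22 was at 0.22 (SE 0.104, edgeR adjusted p 0.447). Among the other sorting nexins with a phox homology domain, which binds phosphoinositides, 9 were higher and 7 lower, with Snx14 at -0.11, Snx19 at -0.01 and Snx21 at 0.22 (edgeR adjusted p 0.343). Of the cargo receptor list, 5 had higher and 6 lower values, with a median of -0.04, and Igf2r was the 1 member called.

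**Figure D5:**
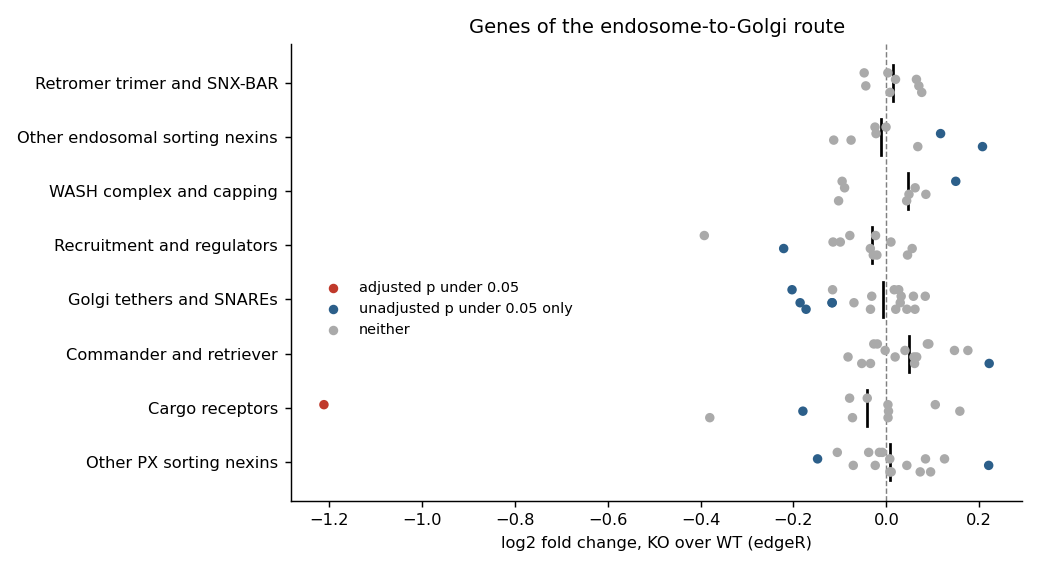
Log2 fold change of KO over WT (horizontal axis) for each tested gene of the members and of 7 further lists, with the list median as a black bar. Red marks an adjusted p under 0.05 (Igf2r), blue an unadjusted p under 0.05 only, and grey neither, and the 8 members lie between -0.05 and 0.08.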

How the data were processed

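The authors deposited raw read counts per gene, with 1 column per library. The submitters' processing notes name mm10, featureCounts 2.0.3, STAR 2.7.10b and Trimmomatic 0.39. Not given in the sources used here are the annotation, the strand setting and the treatment of multi-mapping reads. KO columns were matched to the genotype only, because titles number those samples 4 to 6.

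From the counts, filterByExpr (minimum count 10, minimum total 15) in edgeR 4.0.16 kept 16240 genes, all 8 members among them. Scaling was by TMM, and the test was the robust quasi-likelihood F test, two-sided, adjusted by Benjamini-Hochberg over all genes with a threshold of 0.05. Log2 CPM used a prior count of 2. DESeq2 1.42.0 and limma 3.58.1 (voom) were alternatives, in R 4.3.3. SE is the log2 fold change divided by the square root of F, and 95% intervals use its t distribution. Gene models, lengths and sequences are from GENCODE M21.

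The KO and WT design was also simulated on 16240 genes, of which 200 were shifted. There edgeR recovered 30% of 1.2-fold shifts and 88% of 1.5-fold shifts, and called 12 genes that were not shifted. Each gene was drawn independently around its own mean, so shifts shared by many genes of a library were absent. The recovery rates may therefore not hold for the measured libraries. Replicate pairs differed beyond sampling noise (chi-square per degree of freedom at least 4.51), and WT library 3 stood apart from the other WT libraries, at 23.1 and 20.3, while the remaining pairs reached at most 8.66.

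The members and lists were chosen with earlier results of these data known. Genes named are the members, Igf2r, from each list the called genes or else the 2 of highest CPM and the 1 of smallest p, and the 3 genes most like Vps35. Other names were chosen after their values were seen.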

Additional observations from a re-analysis of the deposited data

How the results depend on the processing

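The count of members called was 0 with edgeR. It stayed at 0 with 2 other scalings, no low-count filter, DESeq2, limma-voom, each library left out, and a replicate block on the column numbers. The smallest adjusted p of any member in these alternatives was 0.419. Of the 13 alternatives, WT library 3 alone (taken to vary like KO) is used for effect sizes only, because its WT arm is a single library. The count of all genes called was 2, against 272 without the low-count filter, 62 with DESeq2, 30 with the replicate block, and 0 to 114 with 1 library left out. The labels do not state that the column numbers pair the samples. Deviations of same-numbered libraries had correlations of 0.0731 to 0.0971 over genes. Libraries of different number were not correlated for comparison, so these values cannot decide whether the columns are paired. Of 104 member values, 95 kept their direction and 9 turned. With 1 library left out, the log2 fold change of Vps35 ran from -0.143 (without KO library 1) to 0.012 (without KO library 2), that of Vps26a from -0.013 to 0.026 and that of Snx6 from -0.0077 to 0.020. Against WT library 3 alone, Vps26a was at -0.023 and Snx5 at -0.020. Vps26b, Vps29, Snx1 and Snx2 kept their direction in these 13. The Snx5 share of Snx5 plus Snx6 turned to -0.483 points against WT library 3 alone, and with 1 library left out the differences ran from 0.606 to 1.83 points for Vps26b, 1.01 to 2.37 for Snx1, 0.334 to 1.72 for Snx5 and -0.108 to 0.414 for SNX-BAR. The cause of these changes was not tested. Counts of 696 to 2948 reads per member and library, with 3 libraries per group, limit the precision.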
